A study of Mus musculus with 6 samples.

Results

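The SLAM family is a group of immunoglobulin-like receptors on lymphocytes and other blood cells, and 10 genes of it were taken here: the receptors Ly9, Slamf1, Slamf6, Slamf7, Slamf8, Slamf9, Cd48, Cd84 and Cd244, and the adaptor Sh2d1a, which encodes SAP. Members were the probes of a microarray value table whose annotated gene is one of these, which gave 19 probes of 45281 in all, for 8 of the 10 genes. No probe carried the name of Slamf8 or Sh2d1a, and these genes were not analysed here. Of the 19 probes, 6 lay above background in at least 3 of 6 arrays, and they belong to 5 genes: Ly9, Slamf1, Slamf7, Slamf9 and Cd84. The family was selected on the difference in log2 intensity of Ly9 between the groups, with that result known, and the other members were read in the same contrast. All differences of members below are therefore descriptions and not independent evidence.

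RNA came from Wehi-231, an immature-like lymphoma line of B cells from (BALB/c x NZB)F1 mice. The 3 samples labelled shCT carried the comparison hairpin and the 3 labelled shTFII-I carried a short hairpin RNA directed, by its name, at TFII-I, which is the product of Gtf2i and acts as a transcription factor. All were grown in DMEM with serum, and RNA was hybridised to Illumina bead arrays as biotin-labelled cRNA. The labels give neither the hairpin sequences nor whether the cells were clones or pools, and they do not say that the replicates were separate cultures, so the spread may be technical. The only probe named for Gtf2i was at background on all 6 arrays, from 6.40 to 6.56 on the log2 scale, which leaves the knockdown unchecked here. The likeness of arrays within a group and between groups covered overlapping ranges. Pearson r across 11977 probes, which are not independent replicates, was 0.944 to 0.971 within groups and 0.944 to 0.979 between groups. Values are log2 intensities, quantile normalized by the authors, with background still in them. An estimated background level of 6.62 separates measurable from unmeasurable signal, and a value at or below it has no order. Precision is limited by the 3 arrays per group.

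SLAM receptors pair with copies of themselves on neighbouring cells, except that Cd244 binds Cd48, which is held in the membrane by a lipid anchor. The tails of Ly9, Slamf1, Slamf6, Cd84 and Cd244 carry tyrosine motifs that bind SAP, a small SH2 protein that recruits the kinase Fyn, or the related adaptors Sh2d1b1 (EAT-2) and Sh2d1b2. Without such an adaptor the motifs can engage phosphatases such as the products of Ptpn6, Ptpn11 and Inpp5d. Slamf8 and Slamf9 have short tails without these motifs. In B cells the family is known for its part in contacts with T cells during antibody responses, and Ly9 is known in mice as a marker of marginal zone and other innate-like B cells.

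The labelled cell type was checked against its markers. Of the B cell markers reported here, Cd79b, Cd22, Blk, Pax5 and Ebf1 had a probe past the filter, the Ms4a1 probe was not past it (highest value 6.76), and no probe was named for Cd79a. The Pax5 probe was near background, above the level on 3 arrays and at no more than 6.70 on any. All 6 T cell markers (Cd3e, Cd3g, Cd3d, Cd4, Cd5 and Lat) and all 4 NK cell markers (Ncr1, Klrb1c, Klrk1 and Nkg7) were below the filter. Of the myeloid markers Csf1r and Tyrobp passed the filter, at no more than 6.74 on any array, and Lyz2, Itgam and Cd14 did not. Of the plasma cell markers Xbp1 passed, and Sdc1, Prdm1 and Jchain did not. For some B cell marker probes all shTFII-I arrays lay above all shCT arrays: Cd79b, a signaling chain of the B cell receptor, had group means of 10.26 and 11.09 with its probe ILMN_2661523, and Blk, a Src-family kinase of B cells, had 7.49 and 8.38 with ILMN_2976441, shCT first. Neither passed limma's test (adjusted p = 0.514 and 0.408). Of the 10 B cell marker probes past the filter 8 were higher and 2 lower in shTFII-I cells, with a median of 0.09 (log2). Of all 11977 probes past the filter, 6007 were higher and 5970 lower. The groups were apart, with shTFII-I higher, for 3 of the 10, against 665 of the 11977. The third of these is a dimmer Blk probe at 0.26, with only 1 shCT array above the background level. The remaining Cd79b probe (0.74) and Blk probe (0.09) overlapped between the groups, and Cd22, Pax5 and Ebf1 probes differed by -0.06 to 0.10. The part of these markers in the differences of the SLAM genes was not tested.

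Ly9 (also Slamf3 or CD229), a homophilic receptor of B and T cells, was measurable in shCT cells only. In bulk RNA, fewer cells with a transcript and less of it per cell cannot be told apart. With the probe ILMN_1231309 the log2 intensity was 7.26, 7.12 and 7.42 in shCT replicates 1 to 3, against 6.44, 6.50 and 6.35 in shTFII-I replicates 1 to 3. All 3 shCT arrays lay above the background level and all 3 shTFII-I arrays below it, and the gap between the groups, 0.62, was larger than the range within either. The means were 7.26 ± 0.15 and 6.43 ± 0.08 (SD, n = 3 each). Since the shTFII-I arrays give only a bound, the mean of the shCT arrays stood at least 1.57-fold above that of the shTFII-I arrays, a bound set by the background level that leaves out their spread. The difference of the values themselves was -0.83 with a standard error of 0.12 (log2, limma, 95% interval -1.13 to -0.54). That interval leaves out the number of probes tested and the selection of the family on Ly9. Over all probes the adjusted p of limma was 0.267.

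The other Ly9 probes were dimmer. ILMN_1213596, annotated to the same RefSeq transcript record, read 6.65, 6.67 and 6.62 in shCT arrays and 6.42, 6.31 and 6.44 in shTFII-I arrays. The groups did not overlap here either, but the shCT values lay just above the background level, the third level with it to within rounding, so that the bound was only 1.02-fold. The difference of the values was -0.25 with a standard error of 0.11. The third Ly9 probe, ILMN_1213156, was annotated to a transcript outside RefSeq and was at background on all arrays, from 6.44 to 6.55. Its group means were 6.52 ± 0.04 and 6.48 ± 0.05 (SD, n = 3 each), and no difference can be read from it. Both probes past the filter passed it through the shCT arrays alone, which is a condition under which a difference has to appear.

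Slamf9 was well above background in every array and was also lower in shTFII-I cells. This receptor, known from macrophages and dendritic cells, had log2 intensities of 10.74, 10.27 and 10.74 in shCT arrays and 9.46, 9.80 and 10.14 in shTFII-I arrays with its single probe, ILMN_2663249. The lowest shCT array stood 0.13 above the highest shTFII-I array, a gap smaller than the range within either group. The means were 10.58 ± 0.27 and 9.80 ± 0.34 (SD, n = 3 each), or 1.72-fold lower, with a difference of -0.78, a standard error of 0.21 and a 95% interval of -1.29 to -0.27. The interval is that of a single probe and takes no account of the number of probes tested (limma adjusted p = 0.629). The myeloid markers, which come from cells where Slamf9 is best known, were at or near background in both groups, with means of 6.59 and 6.61 for Csf1r and 6.55 and 6.68 for Tyrobp, shCT first.

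**Figure D1:**
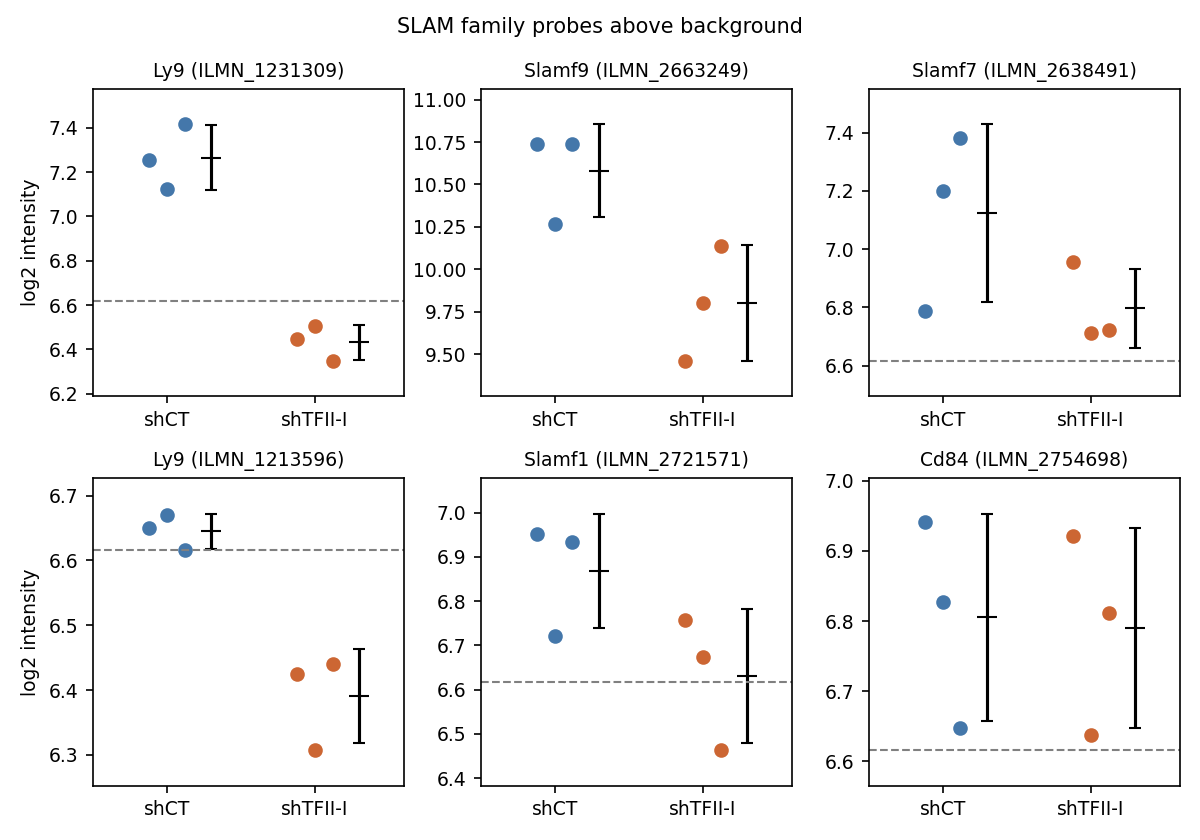
The 6 SLAM family probes above background: log2 intensity (each panel on its own vertical axis) in the 3 shCT and the 3 shTFII-I arrays, in replicate order from left to right, with mean and SD beside them; the dashed line is the background level. The groups are apart for both Ly9 probes and for Slamf9, and they overlap for Slamf7, Slamf1 and Cd84.

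The 300 bases around the transcript start of Slamf9 are shown with those of Cd84, a member above background whose group means were nearly equal, because the series deals with TFII-I and CTCF at promoters. TFII-I is known to bind initiator elements and E-boxes, and CTCF takes its name from a short motif. Capitals mark matches on either strand to the E-box, spelled CANNTG, and to the motif in the name of CTCF, which is spelled CCCTC. Both windows run from 250 bases before to 50 after the start, on the plus strand of GRCm38.p6, at chr1:172475110-172475409 for Slamf9 and chr1:171839447-171839746 for Cd84, from RefSeq.
Slamf9: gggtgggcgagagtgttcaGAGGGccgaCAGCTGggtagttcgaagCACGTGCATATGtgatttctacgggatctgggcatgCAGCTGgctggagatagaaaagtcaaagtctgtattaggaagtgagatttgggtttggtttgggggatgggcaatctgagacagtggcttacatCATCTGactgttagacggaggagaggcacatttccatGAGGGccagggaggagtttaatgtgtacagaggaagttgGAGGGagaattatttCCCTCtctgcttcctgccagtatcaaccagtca
Cd84: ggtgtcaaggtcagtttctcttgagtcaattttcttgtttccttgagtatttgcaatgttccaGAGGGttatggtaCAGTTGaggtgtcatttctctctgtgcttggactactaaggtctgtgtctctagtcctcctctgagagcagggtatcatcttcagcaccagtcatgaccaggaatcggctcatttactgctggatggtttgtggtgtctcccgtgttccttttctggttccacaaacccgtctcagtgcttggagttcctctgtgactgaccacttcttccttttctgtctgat
The Slamf9 window held 5 E-boxes and 4 matches to CCCTC, and the Cd84 window held 1 of each. No E-box overlapped a match to CCCTC. The pair was picked for the contrast in array values. Of the other members above background, Slamf7 had 2 E-boxes and 1 match to CCCTC and Slamf1 had 2 and 0. For Ly9 no promoter window was available. Slamf8, which was not measured, had 5 E-boxes and 0 matches to CCCTC. Of 32544 RefSeq windows of this length, 72.3% held an E-box and 66.1% held CCCTC. At least 5 E-boxes were held by 2.08%, and at least 4 matches to CCCTC by 8.27%. These matches are letters in a window, and no binding was measured in these arrays.

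The remaining members above background had overlapping groups. Slamf7 (CRACC), a receptor of plasma cells and NK cells, read 6.79, 7.20 and 7.38 in shCT arrays and 6.95, 6.71 and 6.72 in shTFII-I arrays with ILMN_2638491. The first shCT array lay below the first shTFII-I array, and the difference of -0.33 had a 95% interval of -0.75 to 0.09. Slamf1, the receptor that gave the family its name, read 6.95, 6.72 and 6.93 in shCT arrays and 6.76, 6.67 and 6.46 in shTFII-I arrays with ILMN_2721571. The third shTFII-I array was below the background level, and the difference of -0.24 had a 95% interval of -0.55 to 0.08. Cd84, an adhesion receptor of B cells, T cells and platelets, read 6.94, 6.83 and 6.65 in shCT arrays and 6.92, 6.64 and 6.81 in shTFII-I arrays with ILMN_2754698. The groups lay on top of each other, and the difference of -0.02 had a 95% interval of -0.34 to 0.30. Each of these intervals includes 0, but for Slamf7 and Slamf1 this depends on the setting. With a prior that follows intensity and is robust the interval was -0.63 to -0.02 for Slamf7 and -0.46 to -0.01 for Slamf1, and without the first shCT array that of Slamf7 was -0.86 to -0.13. For Slamf9 the same prior gave a wider interval than the one above, -1.44 to -0.12.

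The other 13 probes did not pass the filter. Of their 78 values, 3 lay above the background level, each on a different probe and each in a shCT array, and the highest was 6.80 for Slamf6. No probe of Cd48, the ligand of Cd244, rose above background on any array, and its values ran from 6.40 to 6.50 in shCT and from 6.34 to 6.39 in shTFII-I arrays. The 3 probes named Cd244a, the current symbol of Cd244, were at background on all arrays, from 6.35 to 6.59. The 3 probes of Slamf6 (Ly108), a homophilic receptor of B, T and NK cells, ran from 6.29 to 6.80, with ILMN_1244491 above the level in the third shCT array only. The other 2 such values were 6.62 for the Slamf1 probe ILMN_2568187 and 6.63 for the Slamf7 probe ILMN_1245300, both barely above the level. Group means of the 13 probes differed by -0.10 to 0.12, and no fold is given, since both groups were at background. All 6 probes past the filter were annotated to RefSeq transcripts, as were 6 of the other 13, and the other 7 were annotated to transcripts outside RefSeq.

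**Figure D2:**
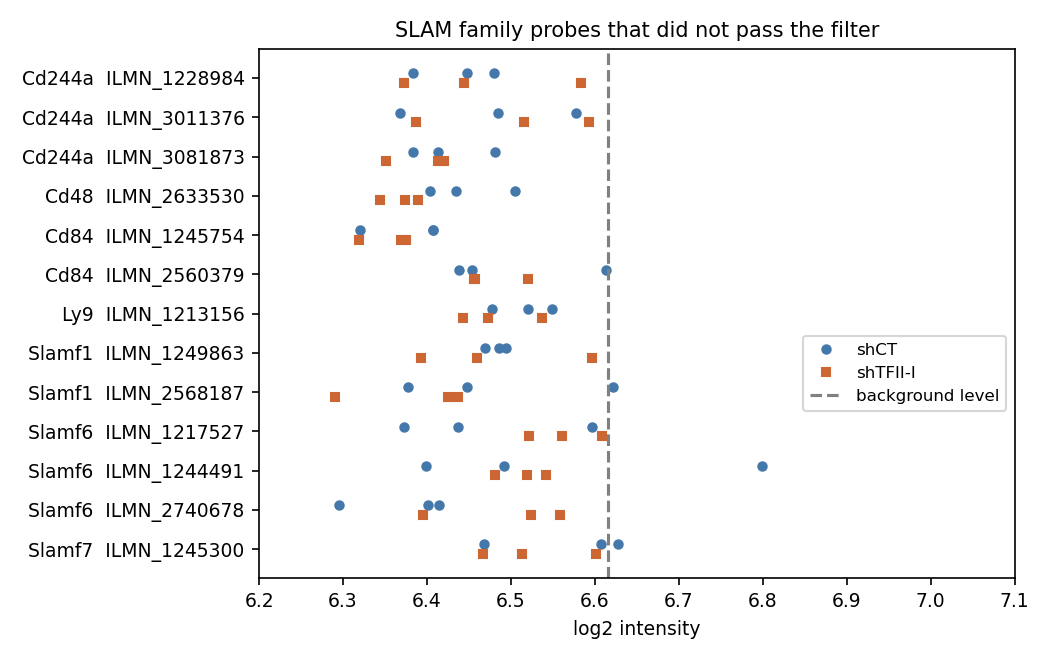
The 13 SLAM family probes that did not pass the filter: log2 intensity on the horizontal axis for the 3 shCT arrays (circles) and the 3 shTFII-I arrays (squares) of each probe, with the background level as a dashed line. Of the 78 points 3 lie right of the line, all of them shCT arrays.

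Over all 11977 probes past the filter, limma called 0 at an adjusted p of 0.05 (0%), and 0 of the 6 member probes. At an unadjusted p under 0.05 it counted 776 probes, or 6.48%, and among members the 2 Ly9 probes and Slamf9. The shTFII-I arrays all lay below the shCT arrays for these 3 of the 6 member probes, against 5.84% of all probes. Nothing is read from these counts, because the contrast is the one in which the family was noticed and the filter favours probes that are high in 1 group.

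**Figure D3:**
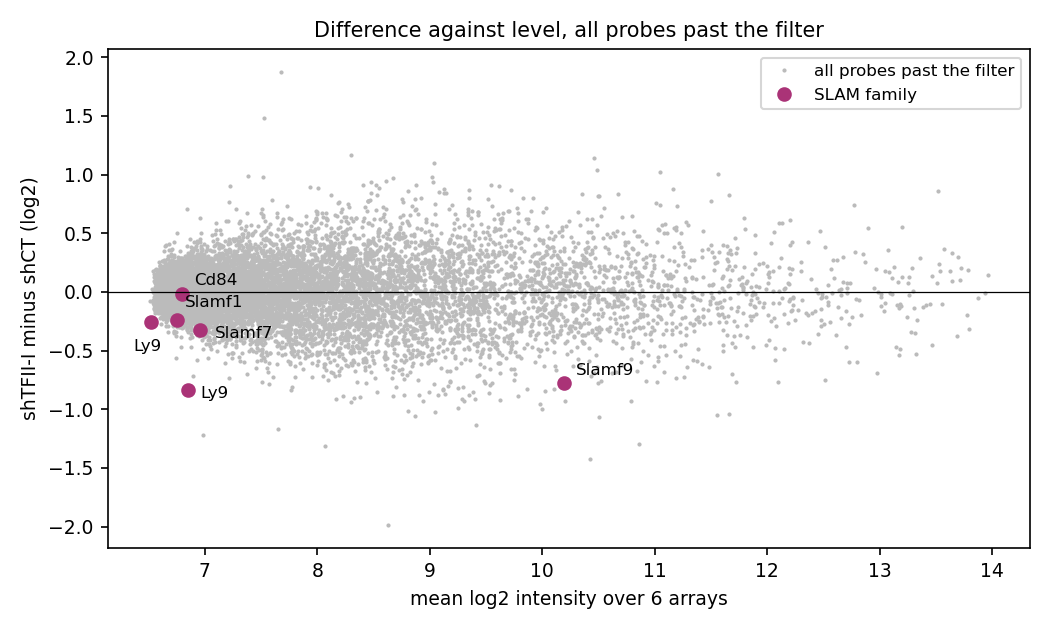
Difference in log2 intensity, shTFII-I minus shCT, against the mean over 6 arrays for 11977 probes past the filter (grey) and the 6 SLAM family probes among them. Ly9 with ILMN_1231309, at -0.83, and Slamf9, at -0.78, are the lowest of the 6 SLAM family points.

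No signaling gene below the receptors passed the test. The list held 22 genes, with the related receptor Cd2 among them. Of these genes, 20 had a probe and 13 passed the filter, with 17 probes. In shTFII-I cells 6 of these probes were higher and 11 lower. Their median difference was -0.15 (log2), and 0 passed limma's test over all probes, with the lowest adjusted p at 0.636 and 2 at an unadjusted p under 0.05. Among all probes past the filter 49.8% were lower, the median was 0.0006, and 6.48% had an unadjusted limma p under 0.05. Some signaling genes have several probes, so these are counts of probes and not of genes. The adaptors of the SAP type could not be measured: the single Sh2d1b1 probe ran from 6.30 to 6.47, and both Sh2d1b2 probes stayed at background, from 6.32 to 6.47. Of 3 probes for Fyn, the kinase that SAP recruits, only the second shTFII-I array of ILMN_2912082 lay above background, at 6.89. Cd2, which binds Cd48 in mice, was at background on all arrays, from 6.28 to 6.55.

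Phosphatases and some of the kinases of the pathway were measurable, and their probes did not always point the same way. Ptpn11, which encodes SHP-2, had 3 probes past the filter with differences of -0.48, -0.45 and -0.23. Only for ILMN_2743723 were the groups apart, at 8.01, 8.17 and 8.09 in shCT and 7.82, 7.54 and 7.57 in shTFII-I arrays. Ptpn6, which encodes SHP-1, differed by -0.63 with ILMN_1220996 and by 0.30 with ILMN_3113420, and the groups overlapped for both. Becn1, an autophagy protein known to associate with Slamf1 in mouse macrophages, read 7.51, 7.28 and 7.56 in shCT and 7.13, 7.02 and 7.23 in shTFII-I arrays. Its difference of -0.33 had a standard error of 0.13, and its other probes were at or near background. Csk, the kinase that restrains Src kinases, differed by 0.62 with a standard error of 0.27, and Rasa1, a RAS GTPase-activating protein, by 0.50 with a standard error of 0.21. Both had overlapping groups, and all these differences missed the threshold.

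Most SLAM receptor genes lie side by side on chromosome 1, and the differences of their neighbours lay on both sides of 0. In the order of the RefSeq table the cluster runs Cd244a, Ly9, Slamf7, Cd48, Tma7-ps, Slamf1, Cd84 and Slamf6, and Slamf9 lies further along the same chromosome. Among Tma7-ps and the 10 protein-coding genes on either side, 10 of 21 genes had a probe past the filter, with 13 probes, 6 higher and 7 lower and a median difference of -0.01 (log2). Limma called 0 of them over all probes, and 1 had an unadjusted p under 0.05. That probe belongs to Ncstn, the nicastrin subunit of gamma-secretase, at 8.22, 8.36 and 8.13 in shCT and 7.73, 7.67 and 8.12 in shTFII-I arrays. Its difference was -0.40 with a standard error of 0.16, but another Ncstn probe, ILMN_2914418, differed by 0.08. The next lowest differences were -0.11 for Pfdn2, a prefoldin subunit, and -0.09 for Nit1, an amidase whose other probe differed by 0.23. The highest differences were 0.30 for Arhgap30, a GTPase-activating protein, with overlapping groups, and 0.24 for F11r, the junction protein JAM-A, whose groups were apart. The gap for F11r was only 0.02 (log2), and its shCT mean, 6.60, lay below the background level. The groups were also apart for the Ncstn probe ILMN_2914416, by 0.01. The genes next to Ly9 on either side are Cd244a, which was at background, and Slamf7, whose groups overlapped.

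**Figure D4:**
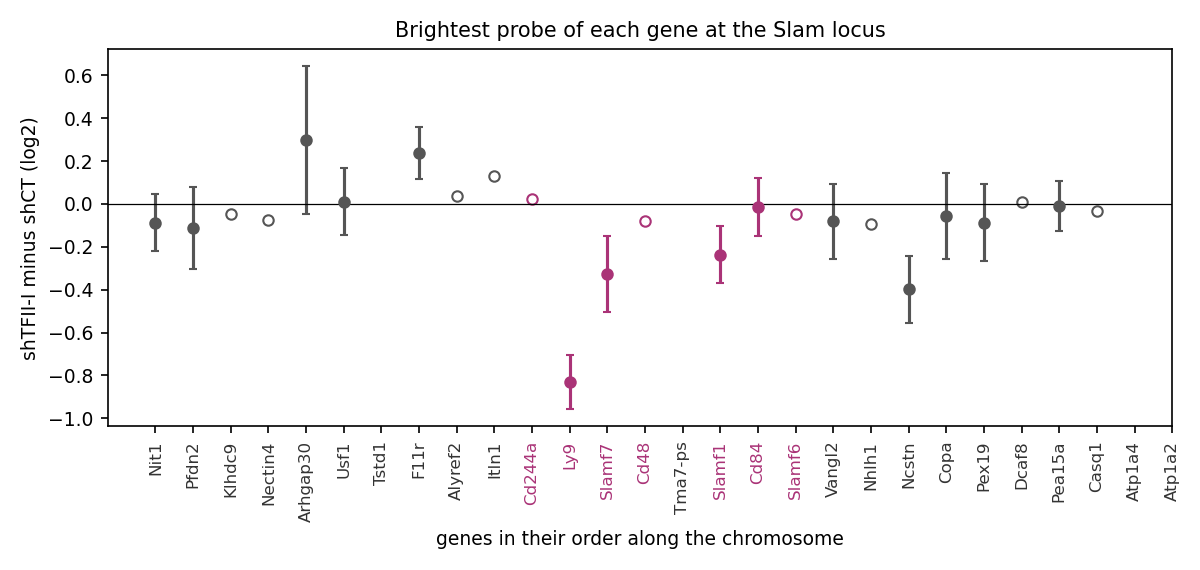
Difference in log2 intensity, shTFII-I minus shCT, of the brightest probe of each gene, with genes in their order along the chromosome and SLAM receptors in purple. Filled points passed the filter and carry the standard error, open points did not pass it, and genes without a point had no probe; Ly9 stands at -0.83 and the next lowest point is Ncstn at -0.40.

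The probes whose 6 array values, each less its own mean, lay nearest to those of Ly9 with ILMN_1231309 are named as a description. The shTFII-I values of Ly9 are at background, so nearness to them is nearness to background readings and shows no order. The nearest were probes of Lcmt1, a methyltransferase of protein phosphatase 2A, Clec2d, a ligand of the NK receptor family NKR-P1, Banf1, which binds chromatin at the nuclear envelope, Il12a, a subunit of interleukin 12, and Abcf1, which acts in translation, at mean absolute distances of 0.05 to 0.10 (log2). Unlike Ly9, all of them were above background on all 6 arrays. Other Lcmt1 probes differed by 0.18 and 0.45, other Banf1 probes by 0.15, -0.04 and 0.17, and other Abcf1 probes by -0.23 and 0.21, so the pattern of these 3 genes depends on the probe.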

How the data were processed

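The authors deposited log2 intensities for 45281 probes in 6 arrays, and from the values the columns were quantile normalized, since sorted columns differ by at most 0.0012. Limma is named in the submitters' processing notes, with no version or role; background correction and probe filter are not stated there. Another table's 12 columns of bead signals and detection p-values carry headings that match no sample and were not used. The background level, 6.62, is the value that 1% of the background exceeds, with its centre at the mode of all values (6.46) and its lower side mirrored. Probes above it in at least 3 arrays were fitted together in limma 3.58.1 (R 4.3.3, lmFit and eBayes, constant prior), with Benjamini-Hochberg adjustment over 11977 probes. The smallest p that an exact permutation of 3 against 3 arrays allows is 0.1, so no such test was run. Of all probes, 34885 had 1 gene symbol, 18 several and 10378 none; 34807 were matched by Entrez ID to symbols of GRCm38.p6. The promoter table holds no entry for Ly9.

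Members and lists were chosen with earlier results of these data known. Genes named were all members; from the signaling and neighbour lists the 3 largest rises and falls past the filter, taken by gene, with Sh2d1b1, Sh2d1b2, Fyn and Cd2; Gtf2i; and the 5 named probes nearest to Ly9. The fit was run on simulated data as a check of the code, with added differences larger than those of the members. That run does not show whether differences as small as those of the members would be found. Alternatives covered filter, background level, prior, array weights, normexp, 1 probe per gene, replicate block and arrays left out.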

Additional observations from a re-analysis of the deposited data

How the results depend on the processing

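Ly9 was the member whose call depended on the setting. The count of member probes past the threshold, 0 as reported, was 1 with a prior that followed intensity, with or without the robust option, and 1 with normexp; each time it was ILMN_1231309 for Ly9. Over all probes the count went from 0 to 14 (0.117%) with either of these priors and to 9 with normexp. Normexp with the trend and robust prior, an alternative added after seeing the data, gave 14 over all probes and 1 among members. At an unadjusted p under 0.05 the counts were 776 over all probes, 3 for members, 2 for the signaling list and 1 for the locus neighbours. With no filter, other background levels, array weights, 1 probe per gene or any array left out, 0 probes passed in each of these sets. With normexp, which removes background, the difference was -1.91 for Ly9 with ILMN_1231309 and -0.79 with ILMN_1213596, from shTFII-I values that lie at background, -0.58 for Slamf1 and -0.63 for Slamf7; for Slamf9 it was -0.82. With 1 array left out Ly9 ran from -0.90 to -0.76 with ILMN_1231309 and from -0.28 to -0.21 with ILMN_1213596, Slamf9 from -0.95 to -0.61, Slamf7 from -0.49 to -0.20 and Slamf1 from -0.31 to -0.15. Cd84 had no settled sign, at 0.0012 with array weights and from -0.094 to 0.061 with 1 array left out. Requiring signal in all 6 arrays left 3 members above background (Cd84, Slamf7 and Slamf9), against 5, since Ly9 and Slamf1 have arrays at background; the other background levels left 5, and the stricter one dropped the Ly9 probe ILMN_1213596. With the replicate number as a block 0 probes passed, and the differences of member probes were unchanged, at -0.83 for Ly9 and -0.78 for Slamf9. Deviations from the group means correlated by -0.03, 0.0032 and 0.09 between arrays of the same number. Between arrays of different numbers they correlated by -0.12 to 0.14. No sign of pairing was seen, but 3 arrays per group cannot exclude it. Dim signal is a limit, since 3 of 8 members with a probe had none past the filter.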
